A study of Mus musculus with 8 samples.

Results

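A set of 41 mitosis genes, chosen by symbol as spindle, kinetochore, cytokinesis and G2/M control genes, was followed across 8 mouse MPNST, the malignant tumors of the peripheral nerve sheath that arise from Schwann lineage cells. All 41 were among the 20943 gene symbols of the deposited table, none was listed at 0 in any tumor, and all 41 were tested. The 3 PRC2 loss tumors came from Plp-CreERT mice with both alleles floxed at Eed (f/f) as well as at Nf1 (f/f) and Cdkn2a (f/f), and are labelled -/- at all 3 genes. The 5 PRC2 wildtype tumors came from Plp-CreERT mice floxed at Nf1 and Cdkn2a alone, and are labelled -/- at those. Both groups therefore share inactivation of Nf1, a Ras inhibitor, and of Cdkn2a, the locus of the p16 and p19 cell cycle inhibitors, and differ by Eed, a core subunit of the histone methyltransferase Polycomb repressive complex 2 (PRC2). Recombination was driven by Plp-CreERT, a tamoxifen-dependent Cre of Schwann lineage cells, after 0.4 mg tamoxifen given on days 0 to 3 of life; infiltrating and stromal cells of other lineages keep the alleles. Neither ages at collection nor wildtype tumor sites are used here. The titles call all 8 samples MPNST. The column labels call the 5 wildtype samples tumor but name the 3 PRC2 loss samples by nerve, so this label cannot be told apart from PRC2 status. PRC2 loss tumor 1 was labelled as a right paraspinal nerve, and tumors 2 and 3 as the left and right sciatic nerve under 1 animal number. By the same codes wildtype tumors 1 and 2 share a number, as do wildtype tumors 3 and 4, so the 8 tumors stand for 2 PRC2 loss and 3 wildtype animal numbers, and p-values that count every tumor as independent are too small if a number marks a mouse.

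Mitosis is driven by cyclin-dependent kinase 1 bound to A- and B-type cyclins, and ends when the anaphase-promoting complex marks cyclin B and securin for destruction. Between those points the spindle is built by motor proteins, chromosomes are attached to it at kinetochores, a checkpoint holds anaphase back until every chromosome is attached, and the midzone and contractile ring divide the cell. Transcripts of these proteins accumulate late in the cell cycle under the MuvB complexes with B-Myb and Foxm1, and are repressed in resting cells when MuvB joins the DREAM complex. MuvB recognises a short promoter element, the cell cycle genes homology region (CHR), which often lies close to the start site beside boxes of the factor NF-Y. In peripheral nerve, mature Schwann cells rarely divide, whereas frequent mitosis is a feature by which pathologists recognise MPNST.

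All 41 mitosis genes were lower in PRC2 loss tumors. Values are quantile-normalized log2 gene counts, and a difference is PRC2 loss minus PRC2 wildtype on that scale. In the limma linear model over 20807 genes, with a Benjamini-Hochberg adjusted p threshold of 0.05, 41 of 41 fell and 0 rose, and 0 had a positive difference at an unadjusted p below 0.05; of all genes tested 19.6% were called lower and 16% higher. The median log2 difference of the 41 genes was -3.25, a median of 9.52-fold lower, beside -0.12 for all genes tested. The falls ran from 2.18 to 4.07 on the log2 scale, that is 4.54-fold to 16.8-fold, with standard errors between 0.23 and 0.58 and adjusted p between 0.000183 and 0.00606. For each of the 41 genes every PRC2 loss tumor lay below every wildtype tumor, a pattern that 21.4% of all tested genes showed in this direction and 16.9% in the other. The distance between the highest PRC2 loss tumor and the lowest wildtype tumor was 0.52 at the least, 1.71 at the median and 2.64 at the most. These are bulk samples, so fewer dividing cells and less of these transcripts per cell cannot be told apart.

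**Figure D1:**
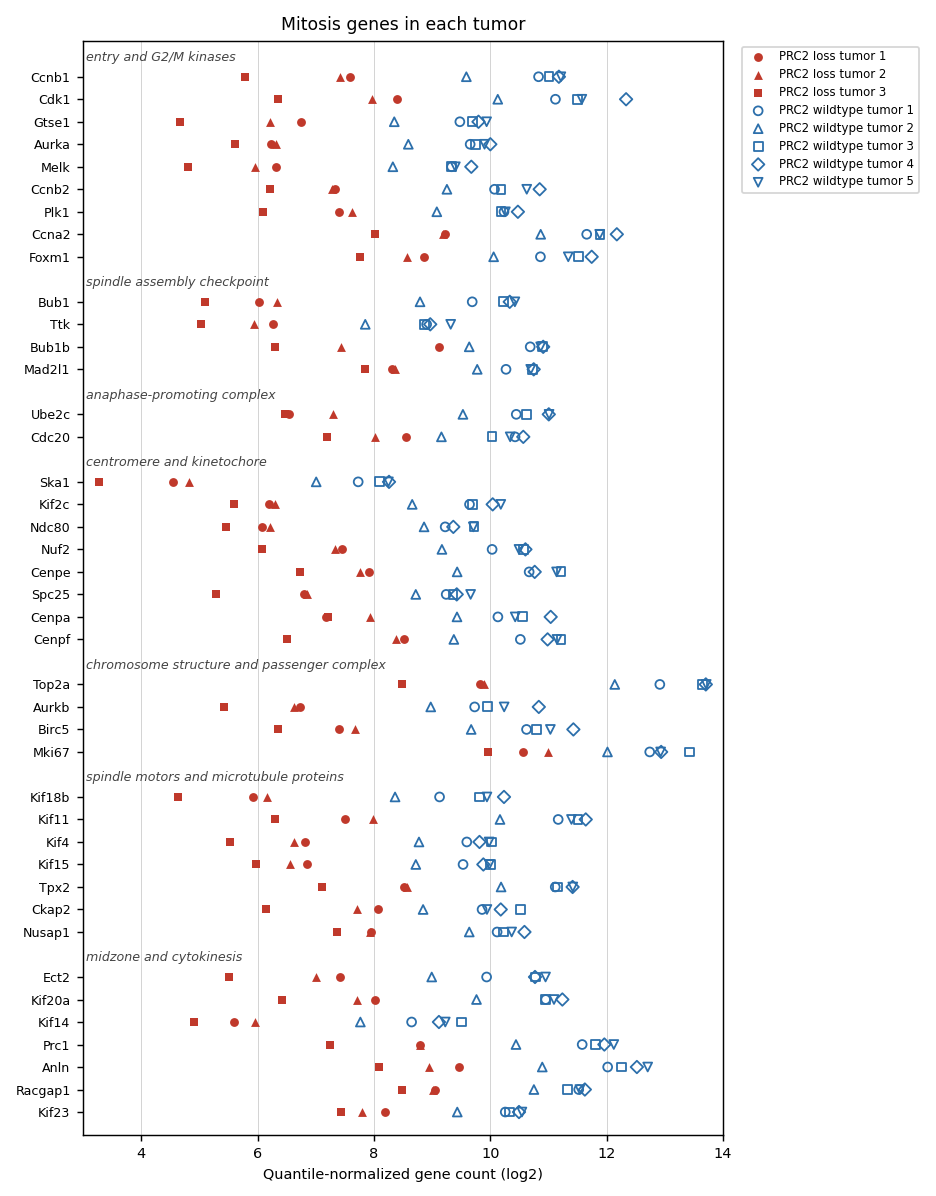
Quantile-normalized log2 gene count (x axis) of the 41 mitosis genes (rows, grouped by role) in each of 3 PRC2 loss tumors (filled red) and 5 PRC2 wildtype tumors (open blue). In every row the 3 red points lie left of the 5 blue ones; PRC2 loss tumor 3 is the leftmost red point in 40 of the 41 rows and wildtype tumor 2 the leftmost blue point in all 41.

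The promoters of 7 genes are shown because 22 of the 35 members with a promoter in the table hold both of a pair of short motifs, which the choice of genes did not use. Sequences are from the RefSeq table for GRCm38.p6 (mm10) and run in the direction of the gene from 250 bases before to 50 after the annotated start; capitals mark each TTTGAA (the CHR core) and each CCAAT (the NF-Y box), searched on both strands, so that TTCAAA and ATTGG are the reverse forms. The promoters of Top2a (chr11:99024140-99024439, minus strand), Ube2c (chr2:164769679-164769978, plus strand), Cdk1 (chr10:69352863-69353162, minus strand) and Ccnb2 (chr9:70421505-70421804, minus strand) hold both motifs. Of these exact spellings, the promoter of Bub1 (chr2:127831810-127832109, minus strand), the member with the largest fall, holds only CCAAT. That of Birc5 (chr11:117848987-117849286, plus strand) holds neither. Other spellings of the CHR were not searched, so a promoter without TTTGAA is not shown to lack the element. The promoter of Hjurp (chr1:88277530-88277829, minus strand), a mitosis gene outside the set that rose, holds one of each.
Top2a: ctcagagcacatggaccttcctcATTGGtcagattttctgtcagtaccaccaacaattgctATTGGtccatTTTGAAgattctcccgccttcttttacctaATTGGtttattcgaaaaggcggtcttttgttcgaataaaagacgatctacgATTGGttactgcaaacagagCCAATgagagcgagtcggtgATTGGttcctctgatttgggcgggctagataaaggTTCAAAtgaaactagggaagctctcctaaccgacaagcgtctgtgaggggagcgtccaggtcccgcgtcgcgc
Ube2c: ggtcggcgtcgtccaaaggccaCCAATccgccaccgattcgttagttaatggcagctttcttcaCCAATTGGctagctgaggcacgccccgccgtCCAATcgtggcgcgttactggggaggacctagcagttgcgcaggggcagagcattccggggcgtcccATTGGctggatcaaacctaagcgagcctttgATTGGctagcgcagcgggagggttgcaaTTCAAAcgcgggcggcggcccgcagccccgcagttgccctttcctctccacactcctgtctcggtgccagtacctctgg
Cdk1: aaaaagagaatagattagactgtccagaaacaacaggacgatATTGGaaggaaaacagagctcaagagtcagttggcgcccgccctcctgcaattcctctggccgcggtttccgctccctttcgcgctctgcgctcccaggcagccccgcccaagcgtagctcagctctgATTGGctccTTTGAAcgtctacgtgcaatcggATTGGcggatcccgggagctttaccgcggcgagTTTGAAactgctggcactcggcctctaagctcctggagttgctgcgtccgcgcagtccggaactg
Ccnb2: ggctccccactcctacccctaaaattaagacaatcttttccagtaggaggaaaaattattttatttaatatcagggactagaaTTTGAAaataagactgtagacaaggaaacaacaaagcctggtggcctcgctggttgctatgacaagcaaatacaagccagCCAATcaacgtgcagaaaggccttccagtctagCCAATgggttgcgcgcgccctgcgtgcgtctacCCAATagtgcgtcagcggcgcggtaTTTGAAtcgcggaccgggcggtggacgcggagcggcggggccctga
Bub1: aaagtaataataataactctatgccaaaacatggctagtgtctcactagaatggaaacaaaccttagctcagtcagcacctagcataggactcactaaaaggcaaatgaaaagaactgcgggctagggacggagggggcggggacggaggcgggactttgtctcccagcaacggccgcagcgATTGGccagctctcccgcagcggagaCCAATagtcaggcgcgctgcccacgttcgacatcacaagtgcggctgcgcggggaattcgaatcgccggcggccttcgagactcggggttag
Birc5: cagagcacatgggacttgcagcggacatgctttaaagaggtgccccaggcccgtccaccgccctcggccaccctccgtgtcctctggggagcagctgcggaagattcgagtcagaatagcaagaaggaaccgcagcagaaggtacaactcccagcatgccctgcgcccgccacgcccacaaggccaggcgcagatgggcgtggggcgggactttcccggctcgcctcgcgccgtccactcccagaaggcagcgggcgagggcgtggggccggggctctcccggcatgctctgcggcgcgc
Hjurp: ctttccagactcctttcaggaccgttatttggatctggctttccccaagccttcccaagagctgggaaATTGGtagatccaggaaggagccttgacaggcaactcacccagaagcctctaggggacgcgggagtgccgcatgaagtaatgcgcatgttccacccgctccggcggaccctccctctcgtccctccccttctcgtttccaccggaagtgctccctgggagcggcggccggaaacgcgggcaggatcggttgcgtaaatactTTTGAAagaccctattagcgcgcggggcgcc

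A RefSeq promoter was found for 35 of the 41 members, and the first listed one was used where a gene had several. For Kif2c, Kif14 and Kif4 the whole window lies inside the gene's span in the GENCODE M21 annotation. The Kif2c window is 117178723 to 117179022 and its span 117159639 to 117182639 (minus strand). The Kif14 window is 136467598 to 136467897 and its span 136466343 to 136531511 (plus strand). Each of these genes holds TTTGAA in its window and is counted below. TTTGAA occurred in 26 of the 35 (74.3%), beside 13.8% of the 16197 tested genes with a promoter. CCAAT occurred in 26 of the 35 (74.3%), beside 38.5%, and both motifs in 22 of the 35 (62.9%), beside 5.72%. Position relative to the start was counted as well. A TTTGAA beginning in the 100 bases around the start, from 50 before to 49 after, was present in 22 members (62.9%) and in 3.35% of all tested genes. No TTTGAA overlapped a CCAAT in the members, although CCAAT and its reverse form overlap each other in the Ube2c promoter. Presence of TTTGAA in this exact spelling did not go with a larger fall inside the set. Other spellings of the element were not searched, so members without TTTGAA are not shown to lack the element. The 26 members with TTTGAA had a median log2 difference of -3.25 and the 9 without it -3.52. Among all tested genes, 543 had TTTGAA within 50 bases of the start. Of these 28.4% were called lower, against 19.5% of the 15654 without it. The 543 include 22 members, all lower, and 32 other mitosis genes described below, of which 27 were lower. The 15654 include 13 members, all lower, and 71 of those other genes, of which 42 were lower. The shares without these listed genes were not computed, so no link of the motif to a fall beyond them is shown. A match describes letters in this window and is no evidence of binding.

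**Figure D2:**
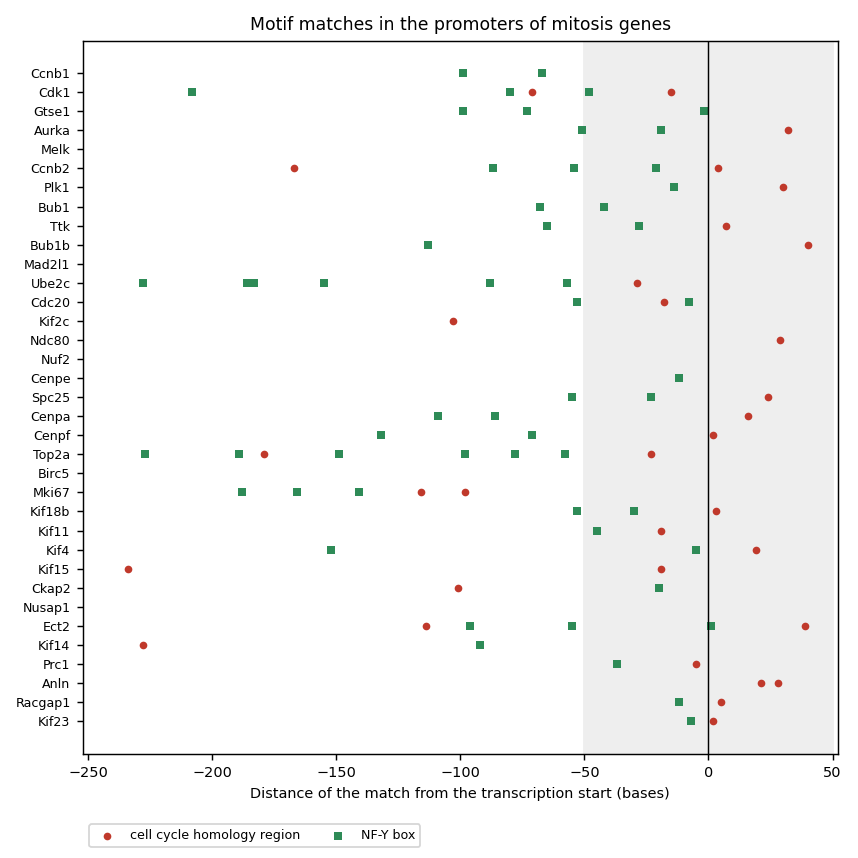
Distance of each motif match from the annotated transcription start (x axis, bases, negative before the start) in the promoters of 35 mitosis genes (rows), with CHR cores as red circles and NF-Y boxes as green squares; the shaded band spans 50 bases on either side of the start. The red circles gather in the band, where 22 of the 35 promoters have at least 1, while most green squares lie before it or in its upstream part.

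The regulators and kinases of entry into mitosis came first in the sequence of events. All 9 fell, with a median log2 difference of -3.52, and their mean level was 7.03 ± 0.78 (SD, n = 3) in PRC2 loss tumors and 10.37 ± 0.60 (SD, n = 5) in wildtype tumors. Aurka, the kinase of centrosome maturation and spindle assembly, had 6.23, 6.31 and 5.62 in PRC2 loss tumors 1 to 3, against 9.65, 8.59, 9.74, 9.999 and 9.90 in PRC2 wildtype tumors 1 to 5. PRC2 loss tumors 1 and 2 were close together, tumor 3 lay below them, wildtype tumor 2 was the lowest of its group, and the groups did not overlap. Aurka was 11.5-fold lower (log2 difference -3.52, SE 0.35, limma adjusted p = 0.000379). Melk, a kinase of mitotic and progenitor cells, had 6.32, 5.96 and 4.80 in PRC2 loss tumors 1 to 3, against 9.33, 8.32, 9.33, 9.67 and 9.40 in PRC2 wildtype tumors 1 to 5. The order of tumors was the same at both ends, with PRC2 loss tumor 3 lowest and wildtype tumor 4 highest. Melk was 11.5-fold lower (log2 difference -3.52, SE 0.42, limma adjusted p = 0.000768). Ccnb2, a B-type cyclin partner of Cdk1, had 7.33, 7.28 and 6.22 in PRC2 loss tumors 1 to 3, against 10.07, 9.25, 10.18, 10.85 and 10.63 in PRC2 wildtype tumors 1 to 5. Again the groups were apart, and Ccnb2 was 9.52-fold lower (log2 difference -3.25, SE 0.40, limma adjusted p = 0.000865).

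The engine itself moved with them. Cdk1, the mitotic kinase, which lies on chromosome 10 from 69335146 to 69352938 (mm10), had 8.40, 7.96 and 6.35 in PRC2 loss tumors 1 to 3, against 11.12, 10.13, 11.49, 12.33 and 11.57 in PRC2 wildtype tumors 1 to 5. Both groups were widely spread here, with PRC2 loss tumor 3 far below the other 2 and wildtype tumor 4 highest, without overlap. Cdk1 was 13.5-fold lower (log2 difference -3.76, SE 0.57, limma adjusted p = 0.00187), and its partner Ccnb1 was 14.3-fold lower (log2 difference -3.84, SE 0.50, limma adjusted p = 0.00107). Ccna2, the cyclin of S phase and early mitosis, fell by 2.89 on the log2 scale, or 7.4-fold, less than the B-type cyclins by point estimate; that difference was not tested. Plk1, a kinase active from centrosome maturation to cytokinesis, was 8.03-fold lower. Gtse1, a microtubule-binding protein of the late cell cycle, was 12-fold lower. Foxm1, the forkhead transcription factor that activates many late cell cycle genes, lies on chromosome 6 from 128362967 to 128376146 and averaged 8.40 ± 0.57 (SD, n = 3) in PRC2 loss tumors and 11.10 ± 0.67 (SD, n = 5) in PRC2 wildtype tumors, 6.51-fold lower (log2 difference -2.70, SE 0.41, limma adjusted p = 0.00182).

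The spindle assembly checkpoint, which keeps anaphase back while kinetochores are unattached, held the largest single fall. All 4 members fell, with a median log2 difference of -3.01. Bub1, a checkpoint kinase at the kinetochore, lies on chromosome 2 from 127801122 to 127831865 and had 6.03, 6.33 and 5.10 in PRC2 loss tumors 1 to 3, against 9.69, 8.79, 10.22, 10.33 and 10.42 in PRC2 wildtype tumors 1 to 5. The groups were far apart, with PRC2 loss tumor 3 and wildtype tumor 2 the lowest of each. Bub1 was 16.8-fold lower (log2 difference -4.07, SE 0.44, limma adjusted p = 0.000493). Mad2l1, the inhibitor of Cdc20 that carries the checkpoint signal, had 8.30, 8.35 and 7.84 in PRC2 loss tumors 1 to 3, against 10.27, 9.77, 10.72, 10.74 and 10.69 in PRC2 wildtype tumors 1 to 5. Its tumors were tightly grouped on both sides, and it was 4.84-fold lower (log2 difference -2.27, SE 0.26, limma adjusted p = 0.000616). Ttk, the kinase that starts the checkpoint, had 6.27, 5.93 and 5.03 in PRC2 loss tumors 1 to 3, against 8.90, 7.85, 8.87, 8.97 and 9.32 in PRC2 wildtype tumors 1 to 5. The groups did not overlap, and Ttk was 8.22-fold lower (log2 difference -3.04, SE 0.41, limma adjusted p = 0.00114). Bub1b, a component of the complex that blocks the anaphase-promoting complex, had the closest groups of the 41, with 9.12, 7.44 and 6.30 in PRC2 loss tumors 1 to 3, against 10.68, 9.64, 10.90, 10.91 and 10.86 in PRC2 wildtype tumors 1 to 5. PRC2 loss tumor 1 lay only 0.52 below wildtype tumor 2, and 1.68 above PRC2 loss tumor 2. Bub1b was 7.89-fold lower (log2 difference -2.98, SE 0.58, limma adjusted p = 0.00578), and it was the single member that missed the threshold with values averaged within each animal number (limma adjusted p = 0.0523); the other 40 fell, as did 10.2% of all genes.

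Both members that act with the anaphase-promoting complex fell. Ube2c, the ubiquitin-conjugating enzyme that serves the complex, lies on chromosome 2 from 164769898 to 164778822 and had 6.54, 7.30 and 6.48 in PRC2 loss tumors 1 to 3, against 10.45, 9.53, 10.62, 11.00 and 11.01 in PRC2 wildtype tumors 1 to 5. PRC2 loss tumors 1 and 3 were level and tumor 2 stood higher, as they were in Cenpa. Ube2c was 13.4-fold lower (log2 difference -3.75, SE 0.37, limma adjusted p = 0.000346). Cdc20, the activator that the checkpoint holds back, had 8.56, 8.02 and 7.19 in PRC2 loss tumors 1 to 3, against 10.42, 9.16, 10.03, 10.57 and 10.34 in PRC2 wildtype tumors 1 to 5. The 3 PRC2 loss tumors were spread evenly and wildtype tumor 2 stood below the other wildtype tumors. Cdc20 showed the smallest fall of the set, 4.54-fold (log2 difference -2.18, SE 0.39, limma adjusted p = 0.00393).

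At the centromere and kinetochore all 8 members fell, with a median log2 difference of -3.20 and differences between -3.66 and -2.85. Ndc80, the namesake subunit of the complex that grips microtubules, had 6.07, 6.22 and 5.45 in PRC2 loss tumors 1 to 3, against 9.22, 8.86, 9.72, 9.36 and 9.71 in PRC2 wildtype tumors 1 to 5. The tumors of each group lay close together compared with the distance between the groups. Ndc80 was 11-fold lower (log2 difference -3.46, SE 0.28, limma adjusted p = 0.000183), and its partners Nuf2 and Spc25 were 9.29-fold and 7.83-fold lower. Kif2c, a kinesin that depolymerises microtubules at kinetochores, had 6.19, 6.29 and 5.59 in PRC2 loss tumors 1 to 3, against 9.64, 8.66, 9.69, 10.04 and 10.18 in PRC2 wildtype tumors 1 to 5. All PRC2 loss values lay under all wildtype values, and Kif2c was 12.3-fold lower (log2 difference -3.62, SE 0.36, limma adjusted p = 0.00038). Cenpa, the histone H3 variant that marks centromeres, had 7.18, 7.94 and 7.21 in PRC2 loss tumors 1 to 3, against 10.13, 9.43, 10.55, 11.04 and 10.43 in PRC2 wildtype tumors 1 to 5. PRC2 loss tumors 1 and 3 were level and tumor 2 stood higher, below every wildtype tumor. Cenpa was 7.31-fold lower (log2 difference -2.87, SE 0.36, limma adjusted p = 0.000865). Ska1, of a complex that tracks microtubule ends, averaged 4.21 ± 0.82 (SD, n = 3) in PRC2 loss tumors and 7.87 ± 0.53 (SD, n = 5) in PRC2 wildtype tumors and was 12.6-fold lower. Cenpe, a kinetochore motor, was 9.05-fold lower, and Cenpf, a large kinetochore and microtubule protein, 7.2-fold lower.

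Among genes of chromosome structure and the chromosomal passenger complex all 4 fell, with a median log2 difference of -3.63. Top2a, the topoisomerase that untangles sister chromatids, lies on chromosome 11 from 98992943 to 99024189 and had 9.82, 9.89 and 8.47 in PRC2 loss tumors 1 to 3, against 12.91, 12.14, 13.64, 13.70 and 13.71 in PRC2 wildtype tumors 1 to 5. PRC2 loss tumors 1 and 2 nearly coincided, tumor 3 lay below them, and wildtype tumors 3, 4 and 5 were level at the top. Top2a was 14.2-fold lower (log2 difference -3.83, SE 0.46, limma adjusted p = 0.000768). Birc5, or survivin, a targeting subunit of the passenger complex, had 7.41, 7.67 and 6.35 in PRC2 loss tumors 1 to 3, against 10.62, 9.67, 10.79, 11.43 and 11.03 in PRC2 wildtype tumors 1 to 5. The groups were apart, and Birc5 was 11.9-fold lower (log2 difference -3.57, SE 0.43, limma adjusted p = 0.000768). Aurkb, the kinase of the same complex, had 6.73, 6.62 and 5.41 in PRC2 loss tumors 1 to 3, against 9.73, 8.97, 9.95, 10.83 and 10.24 in PRC2 wildtype tumors 1 to 5. PRC2 loss tumor 3 and wildtype tumor 4 were the extremes, and Aurkb was 12.9-fold lower (log2 difference -3.69, SE 0.45, limma adjusted p = 0.000841). Mki67, which encodes the Ki-67 protein that coats mitotic chromosomes and is stained in pathology as a proliferation marker, lies on chromosome 7 from 135689784 to 135716361 and had 10.56, 11.00 and 9.96 in PRC2 loss tumors 1 to 3, against 12.74, 12.01, 13.43, 12.94 and 12.93 in PRC2 wildtype tumors 1 to 5. It remained above the median gene of each PRC2 loss tumor, and it was 4.94-fold lower (log2 difference -2.31, SE 0.33, limma adjusted p = 0.00148), one of the 3 smallest falls of the set together with Cdc20 and Mad2l1.

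All 7 spindle motors and microtubule proteins fell, with a median log2 difference of -3.16. Nusap1, which bundles spindle microtubules, had 7.95, 7.93 and 7.36 in PRC2 loss tumors 1 to 3, against 10.12, 9.64, 10.23, 10.59 and 10.37 in PRC2 wildtype tumors 1 to 5. Both groups were compact, and Nusap1 was 5.42-fold lower (log2 difference -2.44, SE 0.24, limma adjusted p = 0.000379). Kif15, a kinesin that helps keep spindle poles apart, had 6.85, 6.56 and 5.98 in PRC2 loss tumors 1 to 3, against 9.53, 8.72, 10.003, 9.88 and 9.98 in PRC2 wildtype tumors 1 to 5. The groups did not overlap, and Kif15 was 8.93-fold lower (log2 difference -3.16, SE 0.35, limma adjusted p = 0.000538). Kif11, the main motor that drives the poles apart, had 7.50, 7.99 and 6.30 in PRC2 loss tumors 1 to 3, against 11.17, 10.17, 11.51, 11.64 and 11.39 in PRC2 wildtype tumors 1 to 5. PRC2 loss tumor 2 was the highest of its group, still well under wildtype tumor 2. Kif11 was 15.1-fold lower (log2 difference -3.91, SE 0.44, limma adjusted p = 0.00061). Kif18b, a motor of microtubule plus ends, was 15.2-fold lower, and Kif4, the chromokinesin of chromosome arms and midzone, 9.95-fold. Tpx2, the activator of Aurka on the spindle, was 7.97-fold lower, and Ckap2, a spindle pole protein, 5.89-fold.

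The midzone and cytokinesis genes closed the sequence, and all 7 fell, with a median log2 difference of -3.31. Racgap1 and Kif23 encode the 2 proteins of centralspindlin, the complex that marks the division plane. Racgap1 had 9.05, 9.01 and 8.48 in PRC2 loss tumors 1 to 3, against 11.52, 10.75, 11.33, 11.62 and 11.54 in PRC2 wildtype tumors 1 to 5. It had the smallest standard error of the 41, with both groups compact apart from wildtype tumor 2, and was 5.67-fold lower (log2 difference -2.50, SE 0.23, limma adjusted p = 0.000274). Kif23 had 8.19, 7.80 and 7.43 in PRC2 loss tumors 1 to 3, against 10.26, 9.43, 10.33, 10.49 and 10.54 in PRC2 wildtype tumors 1 to 5. The wildtype tumors other than tumor 2 were close to each other, and Kif23 was 5.29-fold lower (log2 difference -2.40, SE 0.29, limma adjusted p = 0.000768). Kif20a, a motor of the midzone, had 8.02, 7.70 and 6.41 in PRC2 loss tumors 1 to 3, against 10.95, 9.76, 10.94, 11.24 and 11.09 in PRC2 wildtype tumors 1 to 5. PRC2 loss tumor 3 and wildtype tumor 2 were the lowest of each group, without overlap, and Kif20a was 10.7-fold lower (log2 difference -3.42, SE 0.44, limma adjusted p = 0.00098). Ect2, the exchange factor that centralspindlin recruits to switch on RhoA, was 12.5-fold lower, and Anln, a scaffold of the contractile ring, 9.5-fold. Prc1, which bundles the midzone microtubules, was 9.92-fold lower, and Kif14, a motor needed for the last cut, 10.3-fold.

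**Figure D3:**
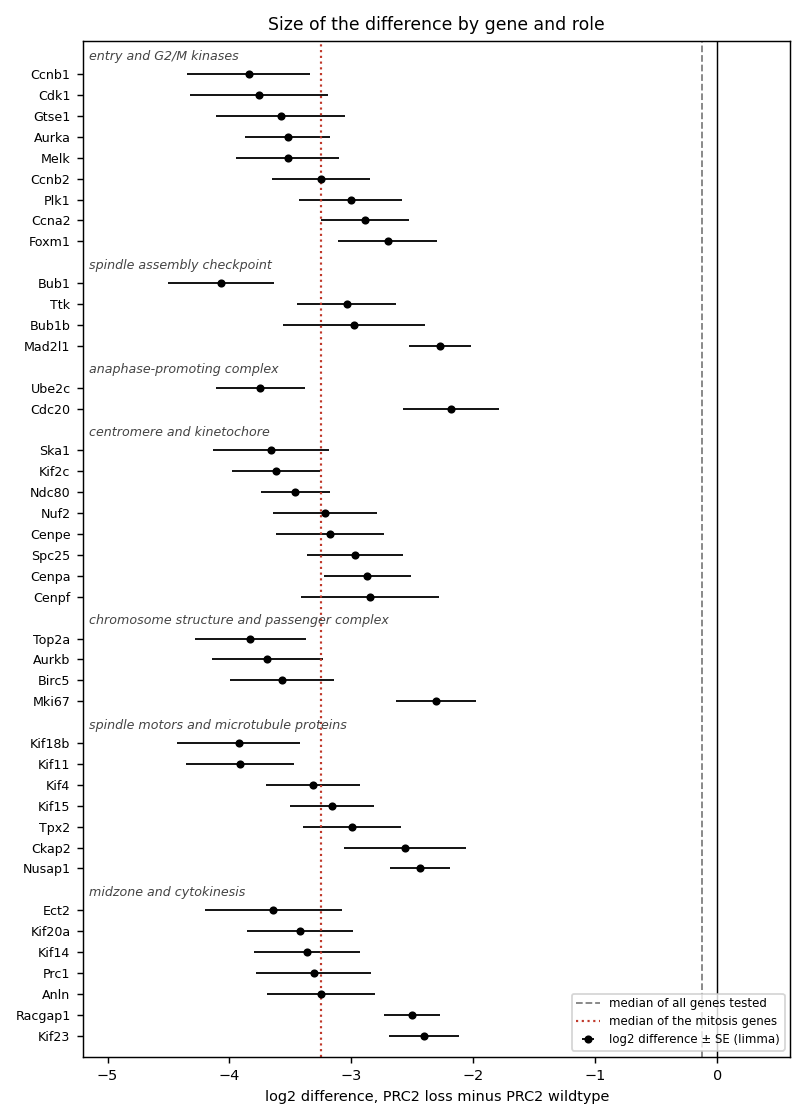
Log2 difference, PRC2 loss minus PRC2 wildtype, with its limma standard error (x axis) for each of the 41 mitosis genes (rows, by role); the dotted line is their median of -3.25 and the dashed line the median of all genes tested, -0.12. Every point lies left of -2, and Bub1 and Cdc20 are the extremes at -4.07 and -2.18.

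Within each group nearly all members were lowest in the same tumor, while the highest tumor varied from gene to gene. The mean over the 41 genes was 7.57, 7.50 and 6.36 in PRC2 loss tumors 1 to 3, and 10.30, 9.39, 10.61, 10.77 and 10.70 in wildtype tumors 1 to 5. PRC2 loss tumor 3 was the lowest of its group for 40 of 41 genes, the exception being Cenpa, and wildtype tumor 2 the lowest of its group for 41 of 41. The sciatic tumors 2 and 3, which share an animal number, differed by a median of 1.16 over the members, with tumor 3 lower in 41 of 41, whereas paraspinal tumor 1 and sciatic tumor 2 differed by a median of 0.04. Wildtype tumors 1 and 2 share a number too and differed by a median of 0.92, with tumor 2 lower in 41 of 41; wildtype tumors 3 and 4, the other such pair, differed by a median of 0.17. The median difference over all genes tested was 0 in these same pairs. Between 1822 and 3372 genes per tumor were listed at 0, and a gene at 0 in both tumors of a pair differs by 0. Quantile normalization also makes the distributions of the tumors alike, so a median of 0 over all genes says little about these pairs. The median SD over the 41 genes was 0.69 in PRC2 loss and 0.59 in wildtype tumors, and for 27 genes the SD was larger in PRC2 loss.

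**Figure D4:**
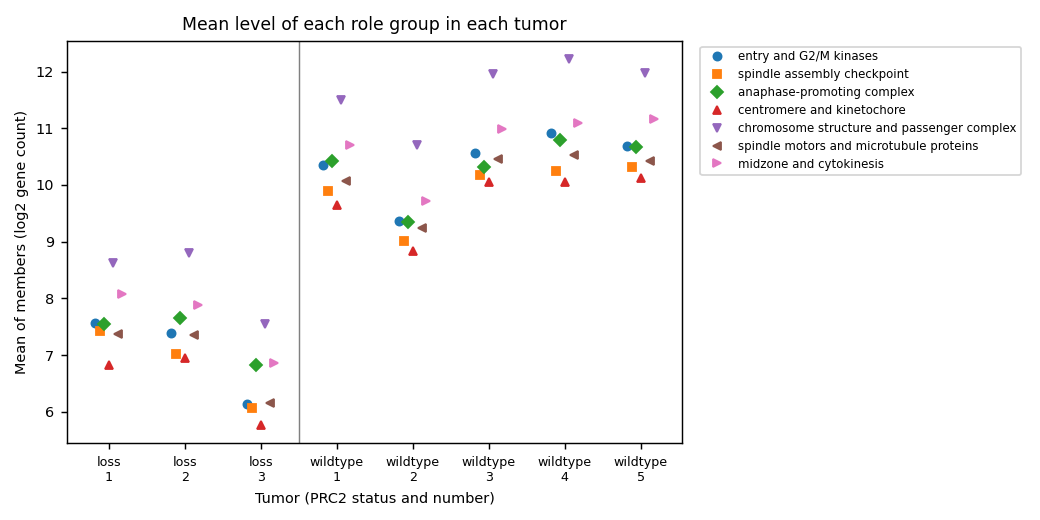
Mean log2 gene count (y axis) of each role group of the mitosis genes (symbols) in 3 PRC2 loss and 5 PRC2 wildtype tumors (x axis); symbols are shifted sideways for clarity, and heights are compared between tumors only, not between role groups, since gene lengths differ. All 7 role groups are lower in PRC2 loss tumor 3 than in tumors 1 and 2, and lower in wildtype tumor 2 than in the other 4 wildtype tumors.

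Other mitosis genes, 120 in all and grouped by function, fell in part. Of these 83 fell, 2 rose and 35 did not pass the test, with a median log2 difference of -1.58. These genes, like the members, were chosen with earlier results of these data known. Their counts are therefore no independent check on the members. The counts of each list below stand beside 19.6% lower and 16% higher among all genes tested. In entry control 12 of 16 fell; the smallest p was that of Ccnf, an F-box protein related to cyclins, at 11.4-fold lower (log2 difference -3.51, SE 0.23, limma adjusted p = 8.32e-05), and Cks2, a small Cdk1-binding subunit, at 9.29-fold. In the anaphase-promoting complex and separase list 6 of 16 fell, among them separase, Espl1, at 8.23-fold lower (log2 difference -3.04, SE 0.26, limma adjusted p = 0.000217) and the conjugating enzyme Ube2s at 3.03-fold. The other 10 of that list, most of them subunits of the complex, had log2 differences between -0.79 and 0.31. Of 17 condensin, cohesion and passenger genes 14 fell, with Cdca8, which encodes the passenger subunit borealin, 11.2-fold lower and the condensin gene Smc4 2.82-fold. Of 23 spindle genes 13 fell, with the motor Kifc1 9.91-fold lower and the centriole gene Sass6 3.74-fold. Of 15 cytokinesis genes 11 fell, and Cep55, which recruits the abscission machinery to the midbody, was 26.6-fold lower (log2 difference -4.73, SE 0.38, limma adjusted p = 0.000173), beyond any member of the set, with Troap, a late cell cycle protein, at 15.7-fold.

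Of these 6 lists, the kinetochore and checkpoint list alone had calls in both directions, 27 of 33 lower and 2 higher. Among all genes tested 19.6% were lower and 16% higher. Spc24, the partner of Spc25, was 19-fold lower and Nsl1, of the Mis12 complex, 6.82-fold. Hjurp, the chaperone that places the histone variant Cenpa at centromeres, lies on chromosome 1 from 88262471 to 88277633 and had 11.44, 10.77 and 11.09 in PRC2 loss tumors 1 to 3, against 10.50, 10.52, 10.31, 10.19 and 10.23 in PRC2 wildtype tumors 1 to 5. Every PRC2 loss tumor was above every wildtype tumor, the opposite order to Cenpa. Hjurp was 1.68-fold higher (log2 difference 0.75, SE 0.17, limma adjusted p = 0.00955). Cenpb, which binds a repeat in centromeric DNA, had 12.98, 13.16 and 13.18 in PRC2 loss tumors 1 to 3, against 12.79, 12.62, 12.80, 12.63 and 12.70 in PRC2 wildtype tumors 1 to 5. It was 1.31-fold higher (log2 difference 0.39, SE 0.11, limma adjusted p = 0.0213), without overlap, but its call was lost with values averaged within each animal number (limma adjusted p = 0.122) and without PRC2 loss tumor 2 (0.05003), as well as with animal number as a random block (0.0536), with the replicate block (0.167) and without PRC2 loss tumors 2 and 3 (0.153).

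**Figure D5:**
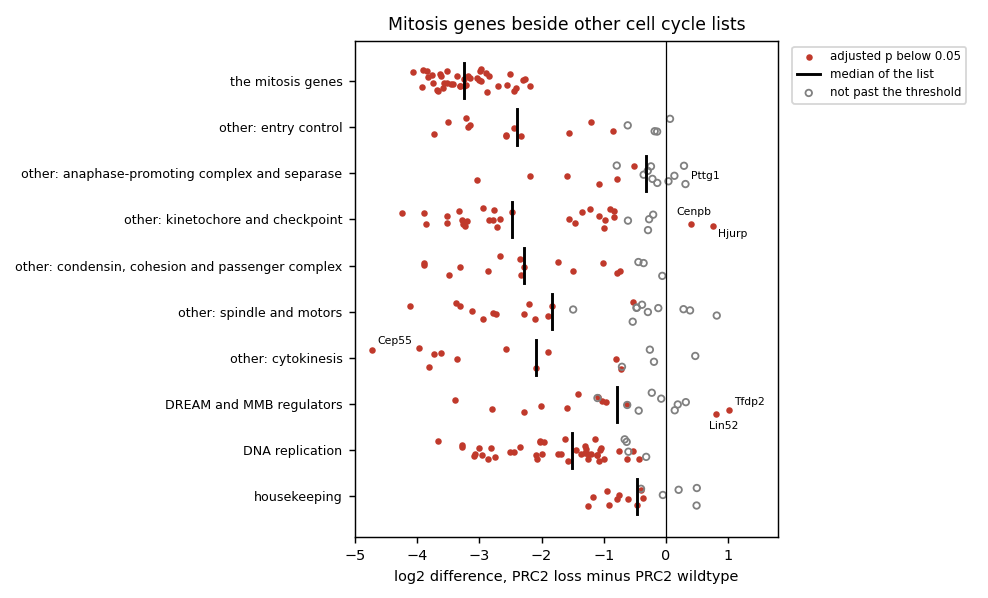
Log2 difference, PRC2 loss minus PRC2 wildtype (x axis), of single genes (points, shifted vertically for clarity) in the mitosis set, 6 lists of other mitosis genes, transcriptional regulators, DNA replication genes and 15 housekeeping genes; filled points passed the limma threshold and bars mark each list's median. The mitosis set lies wholly left of -2, whereas the anaphase-promoting complex list centres near -0.33 and Hjurp and Cenpb stand right of 0.

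Of 20 genes for the DREAM and MuvB complexes, the E2F factors and NF-Y, 10 fell, 2 rose and 8 did not pass the test. Their median log2 difference was -0.80. Among all genes tested 19.6% fell and 16% rose. E2f8, an atypical E2F repressor, was 10.5-fold lower (log2 difference -3.39, SE 0.36, limma adjusted p = 0.000458), and Rbl1, the pocket protein p107, 2.66-fold (log2 difference -1.41, SE 0.17, limma adjusted p = 0.000865). Tfdp2, a dimerisation partner of E2F factors, was 2.02-fold higher (log2 difference 1.01, SE 0.23, limma adjusted p = 0.0108), and Lin52, a MuvB subunit, 1.74-fold higher (log2 difference 0.80, SE 0.24, limma adjusted p = 0.0297). Both rises were lost with animal numbers averaged (limma adjusted p = 0.0593 for Tfdp2 and 0.0964 for Lin52) and with the replicate block (0.0508 and 0.153). The call of Tfdp2 was lost also without PRC2 loss tumor 1 (0.0519) and without PRC2 loss tumors 2 and 3 (0.0823). That of Lin52 was lost also without PRC2 loss tumor 1 or 3 or wildtype tumor 1, 2, 3 or 4 (0.0503 to 0.0698), with array weights (0.0632) and without wildtype tumors 1 and 2 (0.103). Of 46 DNA replication genes 42 fell and 0 rose, with a median log2 difference of -1.52, beside the same 19.6% and 16% of all genes. The replication clamp Pcna was 2.16-fold lower and the helicase factor Cdc45 8.54-fold. TTTGAA within 50 bases of the start was found in 11.1% of the 36 replication promoters and in 31.1% of the 103 promoters of the other mitosis genes. Of the other mitosis genes, those with that match numbered 32, of which 27 fell, with a median of -2.99; of the 71 without it 42 fell, with a median of -0.83. These shares and medians are descriptions, and no test was made between the lists.

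The Eed transcript was 2.57-fold lower in PRC2 loss tumors, at 8.89 ± 0.11 (SD, n = 3) in PRC2 loss tumors and 10.25 ± 0.08 (SD, n = 5) in PRC2 wildtype tumors (log2 difference -1.36, SE 0.11, limma adjusted p = 0.00021), without overlap, and its partners Ezh2 and Suz12 were 2-fold and 1.72-fold lower (limma adjusted p = 0.00832 and 0.0196); the source of the remaining Eed reads was not tested. Markers of several cell types, Schwann cells among them, moved with the groups. Counts of markers called stand beside 19.6% lower and 16% higher among all genes tested. The summed level of 14 measured T and NK cell markers, as log2 of the linear sum, was 9.03 to 10.43 in PRC2 loss and 11.13 to 13.17 in wildtype tumors, with 11 of 14 lower. That of 15 macrophage and monocyte markers was 15.42 to 15.80 in PRC2 loss and 16.02 to 17.21 in wildtype tumors, with 7 lower and 1 higher. That of 10 myelinating Schwann cell markers was 17.44 to 18.32 in PRC2 loss and 12.40 to 14.11 in wildtype tumors, with 10 of 10 higher, and that of 8 endothelial markers 15.18 to 15.94 in PRC2 loss and 13.24 to 14 in wildtype tumors, with 6 of 8 higher. The most abundant gene of each of these lists, Cd4, C1qa, Pmp22 and Cdh5, had log2 differences of -1.68, -1.29, 3.48 and 2.11. The 8 Schwann lineage markers, those of the labelled lineage, summed to 15.04 to 15.62 in PRC2 loss and 9.86 to 14.01 in wildtype tumors, with 5 of 8 higher, 0 lower and a median log2 difference of 3.21. No gene of these 5 lists was at 0 in any tumor, and no marker of any list was at 0 throughout a group. Of the remaining lists, B and plasma cell sums were lower in every PRC2 loss tumor and erythroid sums higher. Sums of neutrophil, fibroblast, skeletal muscle and adipocyte markers overlapped between the groups. Fibroblast sums were 19.34 to 20.12 in PRC2 loss and 19.01 to 19.94 in wildtype tumors, with 2 of 9 markers higher and 0 lower. Wildtype tumor 2, lowest for every member, had the highest T and NK cell, macrophage and B cell sums (13.17, 17.21 and 13.24), and with wildtype tumor 1 the highest skeletal muscle sums (15.86 and 16.25, against 8.08 to 9.14 in the other wildtype tumors). PRC2 loss tumor 3, lowest for 40 members, had the highest erythroid sum, 17.63, against 12.23 and 14.01 in the other PRC2 loss tumors and 10.52 to 12.05 in wildtype tumors. The part of these cells in the falls was not tested. With each tumor centred on 15 housekeeping genes 41 of 41 members fell, beside 9.08% of all genes (1889 lower and 6453 higher, against 4087 and 3337 uncentred). Of those 15 genes 10 were themselves called lower uncentred, with a median log2 difference of -0.47, so this centring raises every difference. With genes of low mean left out 29 of the 29 in the fit fell, beside 24.3%. Without PRC2 loss tumors 2 and 3, chosen after seeing the data, 30 of 41 fell, beside 7.48%, with a median over all 41 of -2.78 and no difference above 0, and with replicate numbers as a block, which the data do not pair, 13 of 41, beside 3.72%. Without wildtype tumors 1 and 2, also an alternative chosen after seeing the data, 41 of 41 members fell with a median of -3.62, beside 21% of all genes. Without PRC2 loss tumor 3, 41 of 41 fell with a median of -2.89, beside 14.4%.

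Counting limits touch single members. By GENCODE M21, whose assembly is mm10, the 41 genes lie on 17 chromosomes, and 8 share exonic bases with another protein-coding gene: Ccna2 with Exosc9, Cdc20 with Elovl1, Ube2c with Tnnc2, Kif4 with Pdzd11, Nusap1 with Oip5, Prc1 with Rccd1 and Kif20a with Cdc23, all on the opposite strand, and Foxm1 with Tex52 and Gm44596 on the same strand. The sources used here do not give the strand setting of the counting, so reads from the shared bases cannot be told apart, and Ccnb1, Ccnb2 and Kif4 also have named pseudogenes; their sizes of fall are uncertain to that extent. The 33 members that share no exonic base with a coding gene fell as well.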

How the data were processed

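Illumina TruSeq libraries were made from poly-A RNA of 8 tumors (per the labels' protocols). Tools named in the submitters' processing notes are Trim Galore, STAR 2.6 and Partek 7.0, with the mm10 build; how reads were counted, on which strand and with which annotation is not given in the sources used here. For 20943 symbols the authors deposited quantile-normalized log2 gene counts. Quantile normalization gives each tumor the same distribution (median near 8.46, highest value 18.764), so depth is unknown, no counting interval is given, and differences are relative to the other genes. The offset before the log is not stated.

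Groups follow the PRC2 status given in the titles, and columns were matched by description. After 136 constant genes were left out, 20807 were fitted by limma 3.58.1 in R 4.3.3 (moderated variances with a trend on mean level). Tests were two-sided, Benjamini-Hochberg adjusted across these genes, at a threshold of 0.05; 9578 had an unadjusted p below 0.05. The procedure was run on simulated data with independent tumors and shifts placed only in genes above the median mean. That simulation had no shared animal numbers, so it cannot show how dependence between tumors affects the p-values. Between 1822 and 2113 genes were listed at 0 in PRC2 loss tumors and between 2686 and 3372 in wildtype tumors. The titles call the tumors biological replicates. Motifs were searched in RefSeq promoters of GRCm38.p6.

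Members and lists were chosen with earlier results of these data known, so lists are described by counts and medians with no set test. Per-tumor values are given for the 3 members of each role with the smallest p, the 2 falls with the smallest p and any rise (at most 3) of each other list are named, as are Eed, Ezh2, Suz12 and the gene of highest mean of the marker lists described, and Bub1b, Cdk1 and Mki67 were singled out after their values were seen, as were the promoters shown. Alternatives were a filter on low genes, offsets of 1 and 16, other variance priors, array weights, 2 centrings, animal numbers as a block or averaged, a replicate block, and leaving out tumors.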

Additional observations from a re-analysis of the deposited data

Results flagged for a closer look

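In the 5 PRC2 wildtype tumors, 9 of the 41 mitosis genes had 1 tumor standing apart, with a gap to its neighbor above 0.71 of the whole range, and in each case it was the low value of wildtype tumor 2. The log2 values of that tumor were 9.59 for Ccnb1, 9.08 for Plk1, 8.59 for Aurka, 8.32 for Melk, 8.35 for Gtse1, 9.64 for Bub1b, 10.18 for Tpx2, 9.76 for Kif20a and 9.43 for Kif23. Chance flags about 1 in 20 groups, and the 41 genes share their tumors, so these flags are not independent. Leaving out wildtype tumor 2 gave a median log2 difference of -3.53 over the members, with 41 of 41 lower, beside 4313 of all 20807 genes tested.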

How the results depend on the processing

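All 41 members fell in 18 of 21 alternatives as far as they were in the fit (29 of them when genes with a mean below the median gene were left out), and none reversed in any. With each tumor left out in turn, 41 fell every time and the median ran from -3.54 to -2.89. Other mitosis genes lower ran from 73 to 89. In the same fits between 2952 and 4313 of all 20807 genes tested were lower. Centring on 15 housekeeping genes, of which 10 were called lower uncentred, gave a median of all genes of 0.34, against -0.12 uncentred. It gave 1889 lower (9.08%) and 6453 higher calls, against 4087 and 3337. The members' median was then -2.79, or -3.13 relative to all genes. That relative value equals the uncentred one by construction, since centring shifts the difference of every gene by the same amount. With animal numbers averaged 40 members fell (10.2% of all genes were lower). Without PRC2 loss tumors 2 and 3, chosen after seeing the data, 30 members fell (7.48% of all genes), as did 42 of the other mitosis genes, the median over all 41 members was -2.78 and the difference of Pttg1 was -0.27, against 0.31 with all tumors; the lone PRC2 loss tumor is then assumed to vary like the wildtype tumors. With low genes left out, 84 of the other mitosis genes were in the fit and 51 fell. With the replicate block 13 members and 26 other mitosis genes fell (3.72% of all genes), with a members' median of -2.97. The numbers do not pair the tumors: correlations of deviations for same-numbered tumors were -0.155, 0.0945 and -0.0482, not every tumor correlated best with its own number, and this fit has few residual degrees of freedom. Depth is unknown, so how far it limits low genes such as Ska1 cannot be stated.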

Other observations

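Separase and its inhibitor securin are partners in anaphase control. Pttg1, which encodes securin, the inhibitor that separase is freed from at anaphase, averaged 9.97 ± 0.55 (SD, n = 3) in PRC2 loss tumors and 9.65 ± 0.40 (SD, n = 5) in PRC2 wildtype tumors and did not pass the test (log2 difference 0.31, SE 0.30, limma adjusted p = 0.45), while Espl1, separase, averaged 7.12 ± 0.43 (SD, n = 3) in PRC2 loss tumors and 10.16 ± 0.34 (SD, n = 5) in PRC2 wildtype tumors. Pttg1 passed upward with housekeeping centring (log2 difference 0.78, limma adjusted p = 0.0493), which raises every difference because most of the housekeeping genes fell. Without PRC2 loss tumors 2 and 3 Pttg1 had a difference of -0.27. Pttg1 was singled out after its values were seen, and the difference between the 2 genes' changes was not tested.

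Some genes that load Cenpa onto centromeres stand outside the main comparison. Oip5, a partner of Mis18a, was 7.23-fold lower (log2 difference -2.85, SE 0.39, limma adjusted p = 0.0012) and Mis18a 1.79-fold (log2 difference -0.84, SE 0.21, limma adjusted p = 0.0172), beside Cenpa at 7.31-fold lower and its chaperone Hjurp at 1.68-fold higher. The rise of Hjurp was lost with the replicate block (limma adjusted p = 0.107) and passed in the other 20 alternatives, leaving out each tumor included. Among the transcription factors, Mybl2, which encodes B-Myb, was 4.02-fold lower (log2 difference -2.01, SE 0.30, limma adjusted p = 0.00177), Lin9, a MuvB subunit, 2.14-fold, and E2f1 4.88-fold. The other MuvB subunits of the list did not fall past the threshold. Lin52 rose, and Lin37, Lin54 and Rbbp4 did not pass, with log2 differences of 0.14, -0.62 and -0.23. E2f2 and E2f5 did not pass either, at -1.10 and -0.08. All genes of this paragraph other than Cenpa, Hjurp and Lin52 were picked with their values known, and no difference between them was tested.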
